A study of Mus musculus with 6 samples.

Results

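The glutathione S-transferases are enzymes that join the tripeptide glutathione to reactive, electron-poor compounds and so make them water soluble and ready for export. The cytosolic enzymes fall into classes named by Greek letters, and the microsomal ones (Mgst) are unrelated membrane proteins of the MAPEG family. In fibroblasts they take part in the handling of lipid peroxidation products and oxidants, and several of their genes are targets of the oxidant-responsive factor NRF2. Described here are 10 genes of this family in mouse embryonic fibroblasts: the alpha member Gsta4, the mu members Gstm1, Gstm2 and Gstm5, the pi members Gstp1 and Gstp2, the omega member Gsto1, the theta member Gstt1, and the microsomal Mgst1 and Mgst3. They were found by the array's target names GSTA4, GSTM1, GSTM2, GSTM5, GSTP1, GSTP2, GSTO1, GSTT1, MGST1 and MGST3, which gave 17 of the 45281 probes and 10 of the 10700 genes tested. The family was selected on measured values, the genotype difference of Gstp2 and its dim signal beside the bright Gstp1 on these same arrays. The differences of the members are therefore a description and support nothing by themselves.

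The cultures were primary fibroblasts on a C57BL/6 background, grown from embryos at embryonic day 12.5 and passaged once in medium with 10% serum. The 3 knockout cultures carried the Asciz-/- genotype and the 3 wild-type cultures the Asciz+/+ genotype, each culture from its own embryo and hybridised to its own bead array. Asciz is the older name of Atmin, a zinc-finger transcription factor known for activating Dynll1, a dynein light chain gene; the labels do not say which part of the gene is missing. With 3 arrays for each genotype, precision was low.

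The labels were checked on Atmin, which fell by 1.99 (SE 0.16, adjusted p = 0.00896 by limma over 10700 genes), and on Dynll1, which fell by 1.89 (SE 0.10, adjusted p = 0.00181), both on the log2 scale. Between 17580 and 18794 probes were detected per array. Wild-type replicate 1 stood apart by Xist, at 8.20 against 4.32 to 4.37 on the other arrays, and by the Y-linked Ddx3y, at 5.37 against 9.80 to 10.48. Knockout replicate 3 had the lowest mean correlation to the other arrays, 0.979 against 0.985 to 0.989. Of 15 listed fibroblast markers 14 were detected, with Postn alone not detected on 3 or more arrays, so that the labelled cell type was borne out by its markers. Their mean lay between 10.28 and 10.63 in wild-type and between 10.06 and 10.77 in knockout cultures (normalized log2 intensity). Of the 14 genes 2 had groups apart and lower in knockout cultures, beside 14.5% of all genes apart in either direction. The lowest difference among the 14 was -0.94.

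Marker averages of some other cell types differed between the genotypes. The 10 of 17 macrophage and leukocyte markers that were detected averaged 6.22 to 6.90 in wild-type and 5.46 to 5.81 in knockout cultures, with Ptprc, Csf1r, Adgre1, Tyrobp, Aif1 and C1qa on the array but below the detection filter. The 14 of 18 skeletal muscle markers detected averaged 7.17 to 7.79 in wild-type and 7.82 to 8.21 in knockout cultures, with Ttn and the factors Myod1, Myf5 and Myf6 below the filter. The averages of the 5 of 8 neural markers (7.98 to 8.03 against 8.12 to 8.45) and the 2 of 6 endothelial markers (6.77 to 6.86 against 6.90 to 7.50) did not overlap between genotypes either. Taken singly, only 1 of the 5 neural and 1 of the 2 endothelial genes had groups apart and higher in knockout cultures, beside 6.7% of all genes. Of the skeletal muscle markers 8 of 14 were apart and higher. Of the macrophage and leukocyte markers 7 of 10 were apart and lower, beside 14.5% of all genes apart in either direction. The neural Tubb3, Sox2 and Elavl3 and the endothelial Pecam1, Cdh5, Kdr and Tie1 were below the filter. The averages of the detected hepatocyte (3 of 8) and epithelial (5 of 7) markers overlapped, and 0 of 7 erythroid markers were detected. Of the single genes, 1 of 3 hepatocyte markers was apart and lower and 1 of 5 epithelial markers apart and higher in knockout cultures. Alb, Afp and Ttr, which define the liver cells richest in many of these transferases, were below the filter. In such bulk RNA, fewer cells of a type and less RNA per cell cannot be told apart, and the part of these cell types in the values below was not tested.

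The pi genes lie side by side on chromosome 19 and have near-copy promoters, which are shown because the values of this pair are compared most closely. The stretches cover 250 bases before to 50 after the RefSeq start site in GRCm38.p6, both on the minus strand, Gstp1 at chr19:4037863-4038162 and Gstp2 at chr19:4042172-4042471. Capitals mark TGAGTCA, the site bound by AP-1 factors, and GGGGCGG, the type of box bound by SP1.
Gstp1: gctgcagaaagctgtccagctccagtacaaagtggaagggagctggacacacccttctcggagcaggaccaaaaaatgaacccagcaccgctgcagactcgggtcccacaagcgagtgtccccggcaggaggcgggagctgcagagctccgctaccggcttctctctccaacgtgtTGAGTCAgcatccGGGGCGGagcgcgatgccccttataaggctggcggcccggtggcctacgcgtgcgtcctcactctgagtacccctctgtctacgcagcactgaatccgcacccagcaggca
Gstp2: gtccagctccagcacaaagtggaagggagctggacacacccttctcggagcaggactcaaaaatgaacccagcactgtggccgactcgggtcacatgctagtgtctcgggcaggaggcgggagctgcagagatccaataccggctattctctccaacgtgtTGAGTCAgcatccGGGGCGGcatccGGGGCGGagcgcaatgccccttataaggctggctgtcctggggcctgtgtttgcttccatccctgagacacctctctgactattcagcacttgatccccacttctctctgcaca
Of the 282 bases that align, 243 are the same in both promoters (86.2%). The TGAGTCA match begins 74 bases before the start site in Gstp1 and 89 bases before it in Gstp2, and Gstp2 carries the SP1-type box 2 times where Gstp1 carries it 1 time. Searched on both strands in all 32851 promoter windows of this length, TGAGTCA was present in 5.2%, GGGGCGG in 23.2%, and TGACNNNGC, the core of the antioxidant response element that NRF2 binds, in 12.4%; a TGACNNNGC match can overlap a TGAGTCA match read on the opposite strand. RefSeq windows were at hand for 9 of the 10 members, all but Gsta4. TGAGTCA was found in 3 of these (Gstm5, Gstp1 and Gstp2), GGGGCGG in 4 (Gsto1, Gstp1, Gstp2 and Mgst3), and TGACNNNGC in 2 (Gstm5 and Mgst1). Members are counted here by gene, while the shares above are by window. Gstm1 and Mgst1 had more than 1 window each, and the Mgst1 match lay in only 1 of its windows. These matches describe the letters of the windows only, and variant forms of these motifs were not searched.

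All 10 genes had at least 1 probe that passed the filter (3 or more of the 6 arrays with a detection p below 0.05), and 16 of the 17 probes passed. The exception was the dimmest of 3 Gstp1 probes, detected on 2 arrays. Values below are log2 intensities after background correction and quantile normalization, from the brightest detected probe of each gene unless another is named. Probes differ in how strongly they bind, so levels are not ranked between genes. The detection filter did not look at genotype, but Gstp2 passed it through the knockout arrays, as described below.

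**Figure D1:**
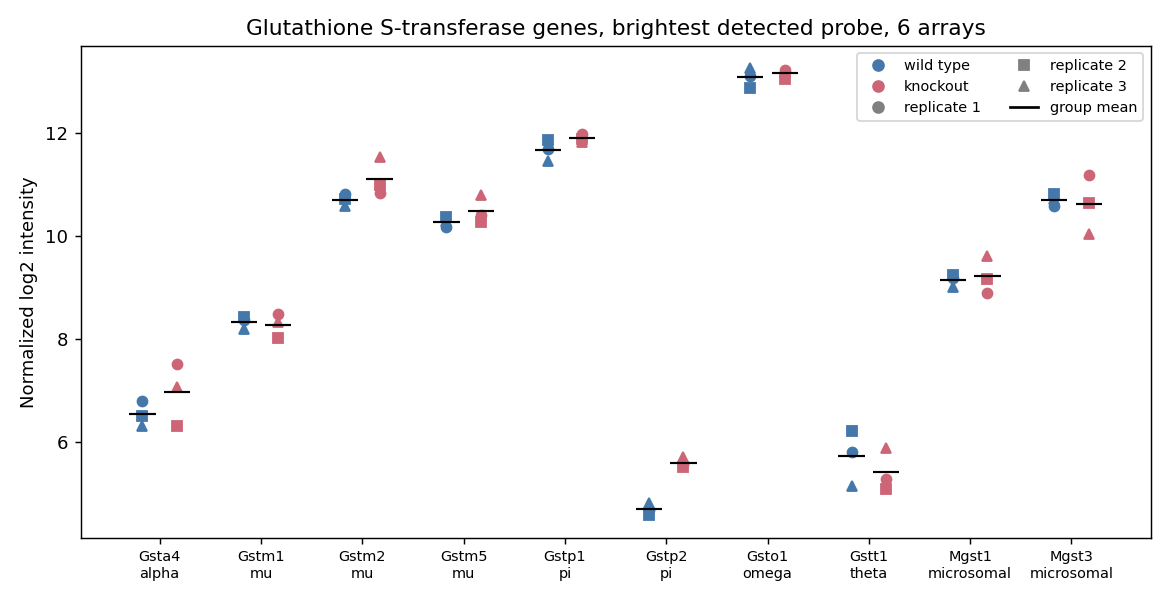
Normalized log2 intensity (vertical axis) of the 10 transferase genes by class, with each array as a point (blue wild type, red knockout; the shape is the replicate number) and the mean of each group of 3 as a black line. Gstp2 and Gstm2 are the genes whose genotypes do not overlap. Mgst3, Gsta4, Mgst1 and the mu genes spread more widely among the knockout cultures than among the wild-type cultures.

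Across the family no member passed the adjusted threshold of 0.05. This was 0 of 10 members, beside 5 of 10700 genes called by limma (0.0467%, or 0.028% called higher) and 8 of 18221 probes tested one by one (0.0439%), and 1 of 10 members at an unadjusted p under 0.05, beside 7.98% of all genes; nothing is read from these counts, since the contrast was known when the family was chosen. Of the 10 differences 7 lay above 0, with a median of 0.15 and a range of -0.30 to 0.91, beside a median of -0.01 and 47.8% above 0 over all genes. The genotypes did not overlap for 2 members, Gstm2 and Gstp2, both higher in knockout cultures, beside 6.7% of all genes apart in that direction and 14.5% apart in either. Under median scaling, which moved the median of all genes to -0.18, 6 members lay above 0 and Mgst1 turned to -0.15.

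**Figure D2:**
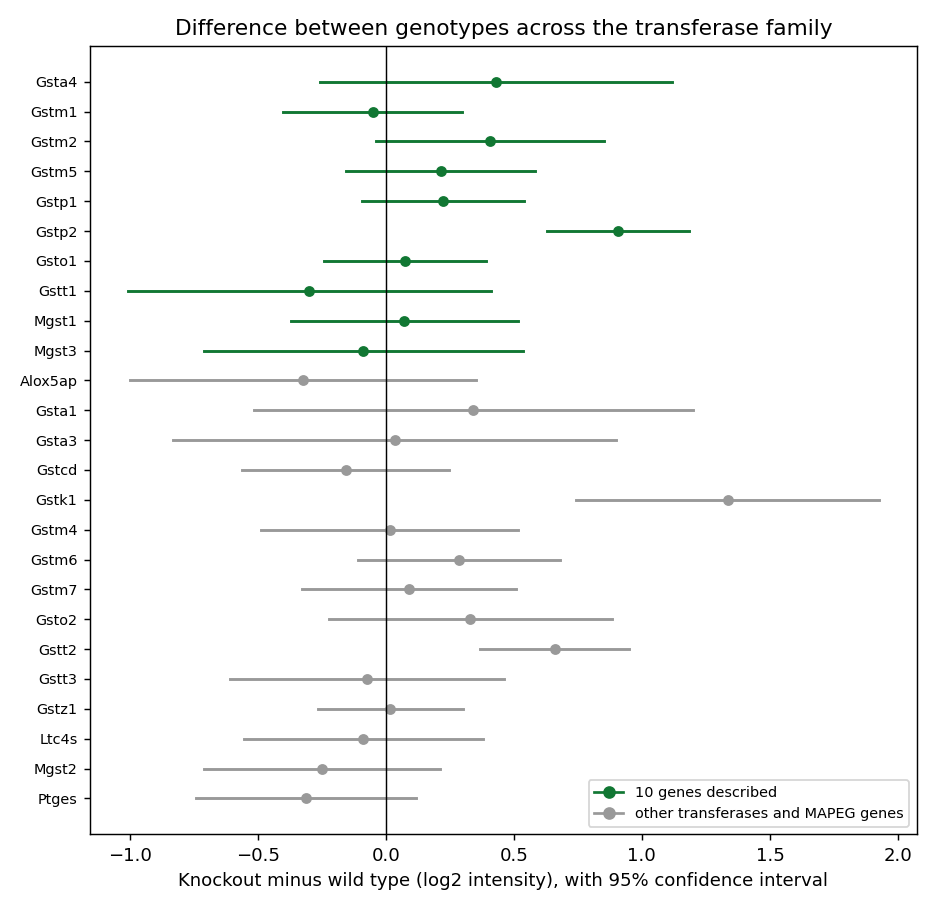
Knockout minus wild-type difference in log2 intensity (horizontal axis) with its 95% confidence interval from limma, for the 10 genes described (green) and 15 other detected transferase and MAPEG genes (grey). The intervals of Gstp2, Gstk1 and Gstt2 lie above 0 and all others cross it, and none of the 25 passed after adjustment over all genes.

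Of the pi class, Gstp1 is the abundant cytosolic enzyme that also binds the stress kinase JNK, and Gstp2 encodes a close relative known in mouse for low expression. The main Gstp1 probe read 11.70, 11.86 and 11.46 in wild-type replicates 1 to 3 and 11.98, 11.89 and 11.83 in knockout replicates 1 to 3. The groups overlapped, because wild-type replicate 2 lay above knockout replicate 3. The means were 11.67 ± 0.20 and 11.90 ± 0.08 (SD, n = 3 each), a difference of 0.22 (SE 0.14, 95% confidence interval -0.09 to 0.54). The other bright Gstp1 probe gave 10.99 ± 0.16 against 11.08 ± 0.19, a difference of 0.10, and the dimmest probe 4.69 ± 0.33 against 4.75 ± 0.17 (SD, n = 3 each).

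Gstp2 had a single probe, near background. It read 4.69, 4.57 and 4.82 in wild-type replicates 1 to 3 and 5.58, 5.52 and 5.70 in knockout replicates 1 to 3. Every knockout array lay above every wild-type array, by more than the spread within either group. The means were 4.69 ± 0.12 and 5.60 ± 0.09 (SD, n = 3 each), a difference of 0.91 (SE 0.12) on this corrected scale. Its detection p was 0.0865, 0.147 and 0.0374 on the wild-type arrays and at most 0.00107 on the knockout arrays, so it was measured above background on 1 of 3 wild-type and 3 of 3 knockout arrays. Over all genes its adjusted p was 0.147 by limma. With array weights it was 0.0460, and over all alternatives that tested Gstp2 it ran from 0.0460 to 0.680. Those weights leaned on knockout replicate 2, at 2.64, against 0.568 and 0.416 for knockout replicates 1 and 3. For wild-type replicates 1 to 3 they were 1.63, 0.722 and 1.36. Requiring detection on all 6 arrays removed Gstp2.

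The unnormalized signal shows how small the measured step was. The mean bead intensity of Gstp2 was 102.7 ± 3.33, 90.2 ± 2.82 and 101.5 ± 2.98 units in wild-type replicates 1 to 3 (SE over 42, 33 and 55 beads). It was 124.8 ± 5.21, 110.3 ± 3.96 and 111.7 ± 3.41 units in knockout replicates 1 to 3 (SE over 36, 53 and 45 beads). The groups did not overlap on this scale either, and the knockout mean of 115.6 units was 17.8% above the wild-type mean of 98.1 units. For comparison, the lowest intensity that any probe needed to count as detected lay between 92.7 and 106.2 units on the 6 arrays. Beads of a probe share the array and the RNA, so their SE covers reading error alone.

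**Figure D3:**
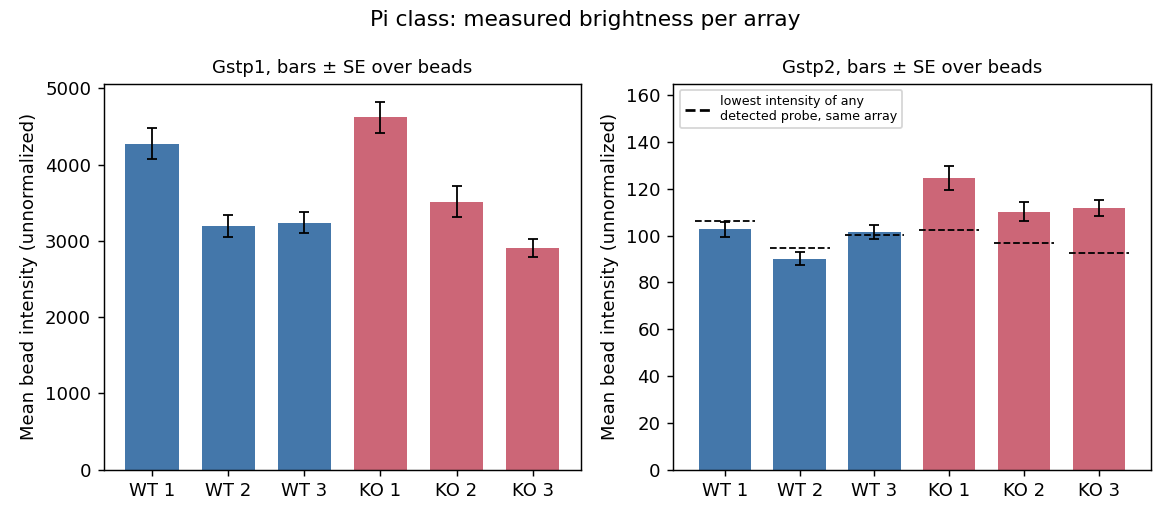
Unnormalized mean bead intensity (vertical axes, different scales, both from 0) of the main Gstp1 probe (left) and the Gstp2 probe (right) on the 6 arrays, with error bars for the SE over beads. Dashed lines give the lowest intensity of any detected probe on the same array; the 3 knockout bars of Gstp2 stand above theirs, and of the wild-type bars only that of replicate 3 does, at 101.5 units.

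Unnormalized, Gstp1 read 4274, 3194 and 3238 units in wild-type replicates 1 to 3 and 4620, 3515 and 2903 units in knockout replicates 1 to 3. Knockout replicate 3 had the lowest Gstp1 signal of all arrays on this scale, whereas after normalization its value of 11.83 lay above wild-type replicates 1 and 3. On the normalized scale both probes had the higher mean in the knockout cultures. As a share of the Gstp1 signal of the same array, the Gstp2 signal, background included, was 2.40% to 3.14% in wild-type and 2.70% to 3.85% in knockout cultures, and these ranges overlapped. After background correction the within-array difference Gstp2 minus Gstp1 was -6.98 ± 0.32 in wild-type and -6.30 ± 0.15 in knockout cultures (SD, n = 3 each), a shift of 0.68 on the log2 scale, given with no test. The probes' sequences were not used here, so whether Gstp1 transcripts bind the Gstp2 probe was not tested.

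The size of the Gstp2 difference varied with the processing. Without any background correction it was 0.31, and with normexp at an offset of 50 it was 0.41. In the authors' normalized table, where normalization and an unstated transformation also differ, it was 0.18. Gstp1, far above background, stayed at 0.22 or 0.23 under those 3 settings. The shift of Gstp2 relative to Gstp1 was accordingly 0.09, 0.19 and -0.04, so its sign turned in the deposited values. Leaving out each array in turn kept the Gstp2 difference between 0.85 and 0.97, and without wild-type replicate 1 and knockout replicate 3 together it was 0.85.

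**Figure D4:**
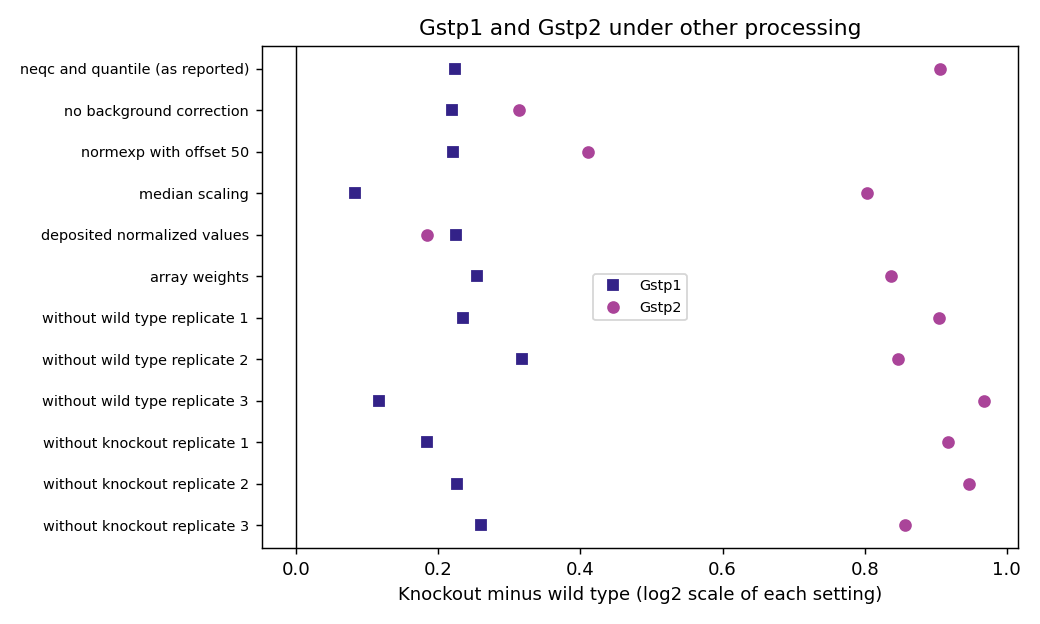
Knockout minus wild-type difference (horizontal axis, log2 scale of each setting) of Gstp1 (squares) and Gstp2 (circles) under 12 processing settings. Gstp2 lies between 0.80 and 0.97 wherever background is corrected from the detection p and at 0.31 without correction, 0.41 with normexp at an offset of 50 and 0.18 in the deposited normalized values, while Gstp1 stays between 0.08 and 0.32.

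The mu genes form a cluster on chromosome 3, in the order Gstm5, Gstm7, Gstm6, Gstm3, Gstm2, Gstm1, Gstm4. Gstm2, an enzyme known for conjugating quinones of catecholamines, read 10.82, 10.72 and 10.58 in wild-type replicates 1 to 3 and 10.83, 10.99 and 11.53 in knockout replicates 1 to 3. Its groups were apart by a hair, since wild-type replicate 1 and knockout replicate 1 differed only in the second decimal. The difference was 0.41 (SE 0.19, 95% confidence interval -0.04 to 0.85), and without knockout replicate 3 it was 0.20. Its other probes gave 0.33, with overlapping groups, and 0.53, with groups apart.

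Gstm1, the main mu enzyme of mouse liver, read 8.37, 8.43 and 8.20 in wild-type replicates 1 to 3 and 8.49, 8.02 and 8.32 in knockout replicates 1 to 3. The knockout arrays held both the highest and the lowest value, and the difference was -0.05 (SE 0.15, 95% confidence interval -0.40 to 0.30). A second, dim Gstm1 probe gave 0.16. Gstm5, known for its expression in brain and testis, read 10.18, 10.37 and 10.28 in wild-type replicates 1 to 3 and 10.41, 10.26 and 10.80 in knockout replicates 1 to 3, a difference of 0.22 (SE 0.16, 95% confidence interval -0.15 to 0.58) with overlapping groups. Without knockout replicate 2 it was 0.33, without knockout replicate 3 it was 0.06, and 0.01 without wild-type replicate 1 as well. Members of this cluster resemble one another closely, so their probes may share targets, which was not tested.

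Gsta4, the alpha enzyme specialised in 4-hydroxynonenal from lipid peroxidation, read 6.80, 6.50 and 6.32 in wild-type replicates 1 to 3 and 7.52, 6.30 and 7.08 in knockout replicates 1 to 3. Knockout replicates 1 and 3 lay above all wild-type arrays and knockout replicate 2 below them. The difference of 0.43 (SE 0.30, 95% confidence interval -0.26 to 1.12) was within the spread of the knockout cultures, 0.62 SD, and ran from 0.15 to 0.76 as each array was left out. Gstt1, a theta enzyme that acts on small halogenated compounds, read 5.81, 6.22 and 5.14 in wild-type replicates 1 to 3 and 5.29, 5.09 and 5.89 in knockout replicates 1 to 3. Its groups overlapped widely, with a difference of -0.30 (SE 0.30, 95% confidence interval -1.01 to 0.41). Single arrays moved it widely: it was -0.05 without wild-type replicate 2 and -0.13 without knockout replicate 2, but -0.59 without wild-type replicate 3 and -0.53 without knockout replicate 3.

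Gsto1, the omega enzyme with thioltransferase activity, had the smallest range over the 6 arrays among the members. It read 13.11, 12.88 and 13.26 in wild-type replicates 1 to 3 and 13.23, 13.05 and 13.19 in knockout replicates 1 to 3, and the groups overlapped. The difference was 0.08 (SE 0.13, 95% confidence interval -0.24 to 0.39).

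The microsomal genes varied more among the knockout than among the wild-type cultures, as did the mu genes and Gsta4. Mgst3, which reduces lipid hydroperoxides, read 10.59, 10.82 and 10.72 in wild-type replicates 1 to 3 and 11.19, 10.64 and 10.03 in knockout replicates 1 to 3. Its knockout SD was 0.58 against 0.12 in wild type, with knockout replicate 1 the highest and knockout replicate 3 the lowest of the 6 arrays. The second Mgst3 probe repeated this order on the same arrays, with means of 9.72 ± 0.15 in wild-type and 9.61 ± 0.59 in knockout cultures (SD, n = 3 each). The genotype difference was -0.09 (SE 0.27, 95% confidence interval -0.71 to 0.54).

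Mgst1, the membrane enzyme of liver microsomes and mitochondria, read 9.19, 9.24 and 9.01 in wild-type replicates 1 to 3 and 8.89, 9.16 and 9.61 in knockout replicates 1 to 3. Here knockout replicate 3 was the highest and knockout replicate 1 the lowest array, the reverse of Mgst3. The difference was 0.07 (SE 0.19, 95% confidence interval -0.37 to 0.51), and the second probe gave 0.11. A larger SD in knockout than in wild-type cultures was found for 6 of 10 members, beside 62.4% of all genes, so the wider knockout spread was not particular to the family. Knockout replicate 3 was the highest or lowest array for 5 of 10 members, beside 49.5% of all genes.

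Outside the 10 genes, the list of other transferases and MAPEG genes held 15 tested genes of 21. None passed over all genes by limma; 2 of 15 had an unadjusted p under 0.05, both higher, beside 7.98% of all genes. The genotypes did not overlap for 3 of 15, all higher in knockout cultures, beside 6.7% of all genes, and the median difference was 0.02. The 2 with an unadjusted p under 0.05 were Gstk1, the kappa enzyme of mitochondria and peroxisomes, and the theta gene Gstt2. Gstk1 read 7.43, 7.50 and 7.30 in wild-type replicates 1 to 3 and 8.38, 8.48 and 9.37 in knockout replicates 1 to 3. All knockout arrays lay above every wild-type array. The means were 7.41 ± 0.10 and 8.74 ± 0.54 (SD, n = 3 each), and limma put the difference at 1.34 with an SE of 0.25 and an adjusted p of 0.332. The second Gstk1 probe gave 1.35 with groups likewise apart, and without knockout replicate 3 the main probe gave 1.02. Over its alternatives the difference ran from 0.89 to 1.52 with adjusted p between 0.0932 and 0.919, so it was never called.

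**Figure D5:**
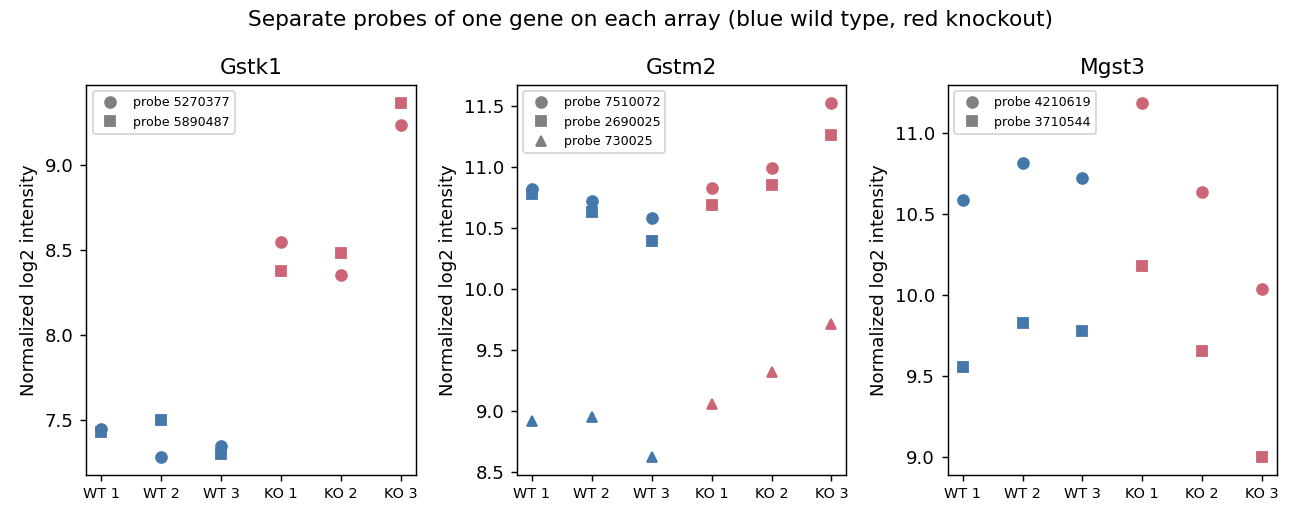
Normalized log2 intensity (vertical axes) of separate probes, by marker shape, of Gstk1, Gstm2 and Mgst3 on the 6 arrays. Both Gstk1 probes lie above the wild type on all 3 knockout arrays, though the arrays within each genotype change order between the probes. Both Mgst3 probes spread widely across the knockout arrays.

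Gstt2 read 5.67, 5.72 and 5.68 in wild-type replicates 1 to 3 and 6.55, 6.23 and 6.27 in knockout replicates 1 to 3. The groups were apart, by 0.66 on average (SE 0.12, adjusted p = 0.332 by limma), while the other Gstt2 probe was detected on 0 arrays. Like Gstp2 it is a dim gene, and without background correction its difference was 0.31. Within the theta cluster of chromosome 10 the values thus ran from -0.30 for Gstt1 over -0.07 for Gstt3 to 0.66 for Gstt2.

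In the 4 lists of genes that make, recycle, use or export glutathione or answer to NRF2, none passed over all genes by limma, beside 0.0467% of all genes. Over all genes 47.8% lay above 0 and 7.98% had an unadjusted p under 0.05. The lists are short, and nothing is read from their counts. Of 13 tested genes of glutathione synthesis and recycling 4 lay above 0 (median -0.09, 0 with an unadjusted p under 0.05), with the smallest p for Ggt7 (0.46, SE 0.20), a relative of gamma-glutamyltransferase, and Oplah (-0.23, SE 0.15), the 5-oxoprolinase. Of 14 peroxidases, glutaredoxins and related enzymes 12 lay above 0 by little (median 0.08, 0 with an unadjusted p under 0.05), with the smallest p for the mitochondrial Glrx5 (0.24, SE 0.15) and for Esd (0.19, SE 0.14), which hydrolyses S-formylglutathione. Ggt7 is dim, and its difference was 0.24 without knockout replicate 3, 0.19 without background correction and 0.12 in the deposited normalized values. Under median scaling the median of the peroxidase list turned to -0.06 and that of the synthesis list was -0.25, beside -0.18 over all genes.

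Of 10 genes for export and processing of conjugates 4 lay above 0 (median -0.10), beside 47.8% of all genes, and 2 had an unadjusted p under 0.05, beside 7.98%. These were the aminopeptidase Anpep (-0.52, SE 0.19, adjusted p = 0.578 by limma) and the dipeptidase Dpep2 (0.33, SE 0.14, adjusted p = 0.606), which was detected on 4 arrays. Dpep2 is dim, and its difference was 0.12 without background correction and 0.06 in the deposited normalized values. Its other probes, at -0.05 and -0.08, were detected on 0 arrays. Anpep is also made by myeloid cells, whose markers were lower in the knockout cultures as given above; its part in this value was not tested. Of 21 regulators and targets of NRF2 15 lay above 0 (median 0.06, 1 with an unadjusted p under 0.05), with the smallest p for thioredoxin, Txn1 (0.32, SE 0.13, adjusted p = 0.606 by limma), and sulfiredoxin, Srxn1 (0.27, SE 0.15).

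The genes whose profile over the 6 arrays was most like that of Gstp2 were Acbd6 (Pearson r = 0.998), D930048N14Rik (0.987) and Krt20 (0.986), with 43 genes above 0.95. For Gstp1 they were Spsb2 (0.999), Mfsd9 (0.977) and Metap1d (0.971), with 10 genes above 0.95. These are the highest among correlations with every other tested gene, over the same 6 arrays, which differ by genotype, and they are given as a description.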

How the data were processed

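RNA from 6 fibroblast cultures was hybridised to 1-colour MouseWG-6 bead arrays. For each probe the authors deposited an intensity, the mean over its beads, with its SD, exported with GenomeStudio version 1.6.0 without normalization, per the file headers. The deposited count is the number of beads per probe (median 43 per array), and the deposited detection fraction is 1 for a detected probe, so 1 minus it served as detection p. The normalized values deposited by the authors are a score, for which the submitters' processing notes name lumi, with its transformation not given in the sources used here; the series table deposited by the authors was read as log2 and not used further. A further 24 columns of per-array values were not used.

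Intensities were corrected and quantile-normalized with neqc (offset of 16) from limma (version 3.58.1, R version 4.3.3). Of 45281 probes 18221 were kept, those detected at p below 0.05 by 3 arrays or more. Target names were updated through RefSeq (GRCm38.p6, names only), which named 80.9% of probes, and the brightest detected probe was kept for each of 10700 genes. Genotypes were compared with lmFit and eBayes, a two-sided test, and p was adjusted after Benjamini and Hochberg across the 10700 genes and called below 0.05. SE and 95% intervals of genes are moderated; the procedure was tested on simulated data. Promoters were aligned with Biopython version 1.88. Named are all members with every probe, per further list the 2 genes with the smallest p, and the 3 profiles most like each of Gstp1 and Gstp2. Members and lists were chosen with earlier results of these data known.

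Alternatives covered background correction, normalization, filter, probe rule, gene names, variance model, array weights, a replicate block, the threshold and the omission of each array. Leaving out both arrays that stand apart was added after seeing the data.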

Additional observations from a re-analysis of the deposited data

How the results depend on the processing

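Of 664 recomputed values 626 were judged the same. A member difference or a median had to stay within its spread, and a count within a set factor. A named gene of the further lists had to keep its sign and its side of the threshold, and none was called to begin with. The variance model, the replicate block and a changed threshold cannot alter a difference here, so this share does not measure robustness. Without background correction, with normexp at an offset of 50 and in the deposited normalized values, Gstp2 stood at 0.31, 0.41 and 0.18, and Gstp2 relative to Gstp1 at 0.0945, 0.19 and -0.0418. Leaving out single arrays gave Gstp2 0.85 to 0.97. Array weights called 1 member, Gstp2 (0.84). Every other alternative run called 0, but the filter for detection on all 6 arrays removed Gstp2, so it was not tested there. The number of all genes called was 2 with the replicate block, 9 with array weights, 3 without the filter, 2 without background correction, 3 with normexp, 2 in the deposited values, 8 with each probe by itself, and 1 to 4 with single arrays left out. Median scaling moved list medians to -0.13 (other transferases), -0.25 (synthesis), -0.0612 (peroxidases), -0.26 (conjugates) and -0.0757 (NRF2), beside -0.18 over all genes. With single arrays left out they ran from -0.0449 to 0.13, -0.12 to -0.0237, 0.0451 to 0.11, -0.17 to 0.0111 and 0.0449 to 0.0994 in that order. The conjugate median was -0.0352 in the deposited values, and the synthesis median -0.0161 with array weights. Without both arrays that stand apart the medians of other transferases, conjugates and NRF2 genes were -0.0770, -0.0077 and 0.0182. The cause of these shifts was not tested. Signs turned also for Gstm1, Gsto1 and Mgst3 in 2 alternatives each and Mgst1 in 3, none of them called. Deviations of equal replicate numbers correlated at 0.23, -0.18 and -0.20, beside -0.33 to 0.40 for unequal numbers. Deviations within a group of 3 arrays sum to 0, so these values cannot decide whether the cultures were paired. The replicate block called none of the members. Signal over background limits Gstp2, Gstt1 and the dim Gstm1 and Gstp1 probes, and outside the members Gstt2, Ggt7 and Dpep2.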

Other observations

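Among NRF2 target genes, some spread over the knockout cultures as Mgst3 did; they were picked after their values were seen. The quinone reductase Nqo1 read 9.52, 7.93 and 7.26 in knockout replicates 1 to 3 and 8.15 to 8.56 in wild-type cultures. The carbonyl reductase Cbr3 read 9.60, 8.84 and 8.51 in the knockout cultures and 8.82 to 8.89 in wild-type cultures. Gclm, the modifier subunit of glutamate-cysteine ligase, read 8.79, 8.53 and 8.20 in the knockout cultures and 8.39 to 8.54 in wild-type cultures. For all of these, as for Mgst3 at 11.19, 10.64 and 10.03, knockout replicate 1 was the highest and knockout replicate 3 the lowest of the 6 arrays, so their genotype means differed little (-0.17, 0.12, 0.05 and -0.09 in the order given) while the knockout SD was 1.16 for Nqo1, 0.56 for Cbr3, 0.29 for Gclm and 0.58 for Mgst3. Gclm belongs to the synthesis list, where G6pdx had the same order (8.72, 8.34 and 7.91 in knockout replicates 1 to 3). In the NRF2 list Fth1 had it too (13.41, 13.29 and 13.17). Most genes of the NRF2 list did not follow this order. Prdx1 had the reverse, at 12.86, 13.09 and 13.21 in knockout replicates 1 to 3, the first the lowest and the last the highest array. Cbr1 (8.91) and Sqstm1 (12.36) were highest on knockout replicate 3. Over all genes, knockout replicate 1 was the highest or lowest array for 39.2% and knockout replicate 3 for 49.5%, so nothing is read from this order. Nfe2l2, which encodes NRF2, read 7.36, 7.36 and 7.84, and the thioredoxin reductase Txnrd1 5.89, 5.73 and 6.08 in knockout replicates 1 to 3.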
